A study of Mus musculus with 8 samples.

Results

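The expressed antisense RNAs of mouse EL4 T cells were described here, 81 genes in all. They were selected on annotation and on their measured counts, by this rule: at least 1 transcript of the biotype antisense, no transcript of the biotype protein_coding or lincRNA, and at least 20 estimated counts in each of the 8 libraries. The biotype rule alone held 2905 of the 54146 genes in the tables, of which 1449 had no count in any library and 81 met the count minimum. Because members were chosen by these levels, the levels are given as a description, and because a member needed counts in every library, an antisense RNA that is off in 1 line cannot be among them.

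EL4 is a mouse T cell lymphoma line that expresses its own Gata3 and not Tbx21, the gene for T-bet. The study asked how T-bet, the master regulator of TH1 cells, and GATA3, that of TH2 cells, act on gene expression when they are present alone or together. The 4 lines were GFP + Plum, with the fluorescent proteins GFP and mPlum and neither ectopic factor; T-bet + Plum, with FLAG-tagged T-bet; GFP + GATA3, with HA-tagged GATA3; and T-bet + GATA3, with both. Lines were made by introducing the constructs and selecting cells, so each line is 1 selected population of a tumour line and a difference between lines cannot be told apart from other differences between selected populations. Every line, the controls included, received 50 ng/ml phorbol 12-myristate 13-acetate (PMA) and 1 µM ionomycin for 4 h, which mimics T cell receptor signalling, before RNA was taken. Each line had 2 libraries here, fewer than the number of biological replicates that the study's RNA-seq figure legend states. The study's methods define biological replicates as harvests of the same line on different days, so p-values here measure the spread between such harvests.

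An antisense RNA is transcribed from the strand opposite to another gene, over its body, its 5′ end or its 3′ end, or from a shared divergent promoter. Some act on the gene they overlap, as the imprinted RNAs Kcnq1ot1 and Airn do in cis, some host small nucleolar RNAs in their introns, as Zfas1 and Snhg14 do, and for most no role is known. Where an antisense exon and a sense exon cover the same bases, reads can be assigned to the right gene only when the library keeps the strand and the counting uses it. The sources used here do not give the strand setting of the counting, so reads of a pair with overlapping exons cannot be told apart with certainty.

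By position, 74 of the 81 members overlapped a protein-coding gene on the opposite strand, 3 were divergent from one (Map2k3os, Gm11423 and 2810001G20Rik) and 4 were apart. On exons, 20 members shared no base with an opposite-strand gene, 50 shared some but under 50% of their exon bases, and 11 shared 50% or more. The start regions of the members that the comparisons below turn on are shown to place them, for those in the RefSeq promoter table (GRCm38.p6), which matched 34 members by symbol. Each runs 5′ to 3′ on the strand of the RNA up to 50 bases past the annotated start, with the first 50 bases of the RNA in capitals, and 2 are shortened where a 5′ UTR of the sense gene begins.
A730035I17Rik, chr5:98185935-98186234, minus strand: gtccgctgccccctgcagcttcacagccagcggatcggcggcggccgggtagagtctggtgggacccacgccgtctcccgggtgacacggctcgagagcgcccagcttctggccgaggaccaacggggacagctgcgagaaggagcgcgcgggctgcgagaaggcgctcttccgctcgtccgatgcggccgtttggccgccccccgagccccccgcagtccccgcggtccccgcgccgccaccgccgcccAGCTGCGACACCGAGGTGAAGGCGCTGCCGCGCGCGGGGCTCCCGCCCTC
A630019I02Rik, chr13:93094583-93094882, plus strand: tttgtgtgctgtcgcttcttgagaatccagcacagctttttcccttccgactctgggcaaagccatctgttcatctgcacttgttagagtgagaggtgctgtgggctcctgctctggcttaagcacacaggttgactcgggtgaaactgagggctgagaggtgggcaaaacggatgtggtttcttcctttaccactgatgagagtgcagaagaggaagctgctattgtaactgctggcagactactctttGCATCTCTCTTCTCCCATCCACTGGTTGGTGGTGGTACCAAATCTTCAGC
Gm37065, chr1:171919307-171919491, minus strand: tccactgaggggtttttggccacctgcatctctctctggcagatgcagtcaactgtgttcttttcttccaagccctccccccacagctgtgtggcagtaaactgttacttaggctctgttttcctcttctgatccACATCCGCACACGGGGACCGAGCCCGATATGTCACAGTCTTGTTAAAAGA
Map2k3os, chr11:60931818-60932032, minus strand: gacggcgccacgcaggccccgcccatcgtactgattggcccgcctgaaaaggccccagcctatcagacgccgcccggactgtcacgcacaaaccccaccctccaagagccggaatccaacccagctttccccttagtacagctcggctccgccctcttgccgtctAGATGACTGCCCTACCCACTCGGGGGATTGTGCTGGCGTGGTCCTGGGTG

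The whole 300-base windows around the starts of A730035I17Rik and A630019I02Rik lay inside coding exons of their sense genes, Prdm8 and Cmya5, whereas the window of Map2k3os held the 5′ end of Map2k3 and no coding base. The window of A730035I17Rik was 76% G and C, against a median of 52.7% over all 32851 windows in the table. The 34 members had 40 windows in the table. The T-box letters AGGTGTGA, searched on both strands, stood in 1 of these 40 (Gm16876), or 2.5%, and in 1.27% of all windows. Its shorter core AGGTGT, which every AGGTGTGA contains, stood in 5 of the 40, or 12.5%, and in 13.7% of all windows. The GATA letters AGATAA stood in 1 of the 40 (6230400D17Rik), or 2.5%, and in 11.2% of all windows. None of the 4 windows shown holds any of them, which says only that these letters are not in these stretches.

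The libraries held 8038565 to 16003519 estimated counts, the shallowest being T-bet + Plum 1. The introduced genes followed the labels. In TPM, a length-scaled transcript abundance, Tbx21 stood at 52.4 to 70.2 in the 4 libraries with T-bet and at 0.755 to 1.71 TPM in the others. Gata3 stood at 263 and 300 TPM in GFP + GATA3, 164 and 138 TPM in T-bet + GATA3, and 11.4 to 27.6 TPM without ectopic GATA3. Its level was thus not equal in the 2 lines with ectopic GATA3. The log2 FC of Gata3 for T-bet, averaged over both GATA3 states, was -0.67 ± 0.14 (SE, edgeR FDR 0.0174). The part of this in the comparisons below was not tested. Of 8 T cell markers, 7 exceeded 10 TPM in every library, and Cd2 was lower, at 9.66 to 19.8 TPM with T-bet and 1.57 to 2.58 TPM without, and its part in the results below was not tested. The 13 markers of B, myeloid, erythroid and epithelial cells reached at most 0.689 TPM, and 4 of them, Hbb-bs, Epcam and Krt8 included, were at 0 throughout. In bulk RNA, fewer cells that express a gene and less RNA per cell cannot be told apart.

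The members together made up 0.298% to 0.451% of all estimated counts, and 4138 to 6334 TPM, in a library. Levels were very unequal: the mean TPM over the 8 libraries ran from 0.577 for Gm4117 to 1719 for Gm15564, with a median of 6.62. Only 6 members exceeded a mean of 100 TPM, 21 lay between 10 and 100 TPM, 49 between 1 and 10 TPM, and 5 were at or below 1 TPM. The top 2, Gm15564 and Gm29084, held 61.1% of the summed level and the top 8 held 87.9%.

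The 8 highest by mean TPM were Gm15564 (1719 TPM), Gm29084 (1167 TPM), Snhg14 (403 TPM), Gm47551 (364 TPM), Zfas1 (217 TPM), Gm20400 (155 TPM), Rab26os (87.2 TPM) and Gm26782 (38.9 TPM). Their levels are not equally certain. Gm29084 had 97.6% and Gm47551 92.6% of their 31-base windows in transcripts of other genes on the same strand, so reads from those genes could be credited to them. Gm15564 had 3.92% of its windows in other genes, Lars2 among them, and Lars2, a mitochondrial leucyl-tRNA synthetase gene, was itself listed at 5630 to 7156 TPM. Over all members, 10 had 50% or more of their windows in same-strand transcripts of other genes and these 10 held 33.8% of the summed level; 60 had at least 50% of their windows in no other gene on either strand.

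**Figure D1:**
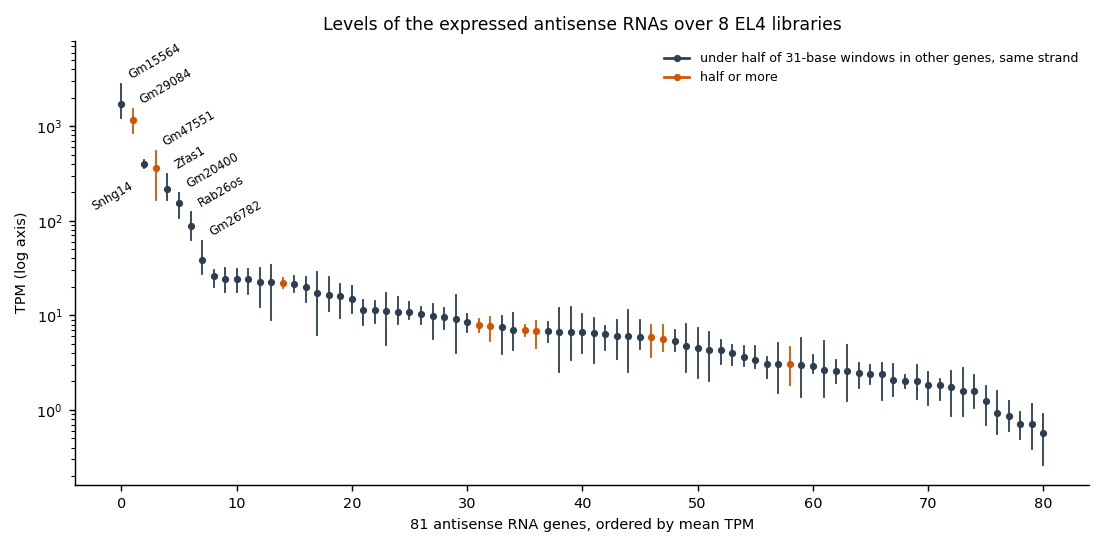
Mean TPM (points) and the range from the lowest to the highest of 8 libraries (lines), on a log axis, for the 81 antisense RNA genes in order of their mean; orange marks the 10 with 50% or more of their 31-base windows in same-strand transcripts of other genes. The level falls from 1719 TPM for Gm15564 to 38.9 TPM for Gm26782 within the first 8 genes and to 0.577 TPM at the end.

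Members at the minimum were 1700082M22Rik, 6330418K02Rik and 1700120C14Rik, whose lowest library held 20.4, 21 and 21 estimated counts. Just outside it stood E130307A14Rik, Gm28417 and Arhgap27os3, with 19.99996, 19.8 and 19 counts in their lowest library. Replicate libraries of a line differed by a median of 0.215 to 0.467 on the log2 scale over the members, against 0.192 to 0.293 over all 14791 genes tested, with the widest spread in GFP + Plum. The largest single gap, 1.74 on the log2 scale, was that of 2010007H06Rik between the GFP + Plum libraries.

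Of the antisense RNAs with a described role on the list used, Kcnq1ot1, Airn and Zfas1 were members. Kcnq1ot1, a very long RNA, had a mean of 2.02 TPM and Airn 7.49 TPM. The imprinted or X-linked RNAs Nespas and Tsix were at 0 in every library. Around the 29 TH1 and TH2 genes on the list used, 15 antisense genes overlapped or started within 100000 bases of 14 of them, and 0 of the 15 were members. Of these 15, 7 had no count in any library, and the most abundant, Gm16229 near Stat6, the signal transducer of the interleukin-4 receptor, had 24 estimated counts over all libraries.

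T-bet was compared first, as the mean effect over both GATA3 states, 4 libraries with T-bet against 4 without, in edgeR's quasi-likelihood test across all genes with Benjamini-Hochberg adjustment (FDR). A gene was called at an FDR of at most 0.05. With T-bet, 5 members fell (A730035I17Rik, Gm43352, Gm37065, 1700120C14Rik and B630019A10Rik) and 2 rose (A630019I02Rik and A430057M04Rik). These 7 are 8.64% of the members, against 15.2% of all 14791 genes tested (8.55% higher and 6.61% lower). Of 246 further antisense genes of the biotype rule that entered the test without meeting the member minimum, 17, or 6.91%, were called. The median log2 fold change (FC) was -0.00 over the members and 0.02 over all genes, and 40 members had an estimate above 0 and 41 below.

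A730035I17Rik (ENSMUSG00000045238.9), antisense to Prdm8, fell most. Its depth-scaled counts (CPM) were 23.8 and 20.4 in GFP + Plum, 5.48 and 6.5 in T-bet + Plum, 21.9 and 23.3 in GFP + GATA3, and 9.62 and 6.45 in T-bet + GATA3. All 4 libraries with T-bet were below all 4 without, and the lines with and without GATA3 stood close to each other. The averaged log2 FC was -1.69 ± 0.16 (SE, edgeR FDR 0.000355). The gene lies on chr5:98183121-98185984, minus strand, in GRCm38, and 59.0% of its exon bases and 55.3% of its 31-base windows were those of Prdm8 on the other strand. Of its 5 transcripts, 4 carried its reads, with 45.8% of the gene's TPM on the 634-base one.

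Prdm8, a PR-domain zinc finger regulator of transcription, fell as well. Its level was 4.78 and 3.64 TPM in GFP + Plum, 1.10 and 1.38 TPM in T-bet + Plum, 4.24 and 5.06 TPM in GFP + GATA3, and 1.54 and 1.83 TPM in T-bet + GATA3, an averaged log2 FC of -1.50 ± 0.16 (SE, edgeR FDR 0.000625). The antisense RNA stood higher per length than its sense gene, at a mean of 17.2 TPM against 2.95 TPM. Given the shared exon bases, whether both RNAs fell or reads of 1 were divided between them was not tested.

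Gm43352 (ENSMUSG00000106086.1) is a single exon across the 5′ end of Lef1, on chr3:131109026-131112090, minus strand. It was at 31.3 and 26.6 CPM in GFP + Plum, 7.72 and 9.91 in T-bet + Plum, 27.7 and 25.0 in GFP + GATA3, and 11.9 and 7.18 CPM in T-bet + GATA3. The groups with and without T-bet did not overlap, and the averaged log2 FC was -1.59 ± 0.18 (SE, edgeR FDR 0.000842). Lef1, an HMG-box factor of Wnt signalling that marks naive and developing T cells, fell by 1.13 on the log2 scale (SE 0.14, edgeR FDR 0.00138), from 98.3 to 121 TPM without T-bet to 35.8 to 50.4 TPM with it. The 2 genes shared 39.4% of the exon bases of Gm43352, and 61.2% of its windows were in no other gene.

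A630019I02Rik (ENSMUSG00000114968.1), on chr13:93094833-93098968, plus strand, rose. It was at 13.6 and 9.51 CPM in GFP + Plum, 24.4 and 34.3 in T-bet + Plum, 11.8 and 10.1 in GFP + GATA3, and 21.3 and 22.1 CPM in T-bet + GATA3. Every library with T-bet was above every library without it, and the averaged log2 FC was 1.17 ± 0.16 (SE, edgeR FDR 0.00248). Cmya5, the sense gene, which encodes the muscle protein myospryn, rose by 1.00 ± 0.18 (SE, log2; edgeR FDR 0.00762) at a low level, 0.812 to 1.27 TPM without T-bet and 1.39 to 2.42 TPM with it. Of the exon bases of the antisense RNA, 82.0% lay on exons of Cmya5, the largest such share among the called members.

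Gm37065 (ENSMUSG00000104413.1), on chr1:171909957-171919356, minus strand, overlaps the body of Slamf6, a SLAM-family receptor of T and NK cells, with no exon base in common. It was at 10.6 and 12.5 CPM in GFP + Plum, 5.72 and 3.49 in T-bet + Plum, 11.3 and 8.81 in GFP + GATA3, and 5.73 and 6.58 CPM in T-bet + GATA3. The T-bet libraries were all lower, with an averaged log2 FC of -1.02 ± 0.20 (SE, edgeR FDR 0.0112). Slamf6 itself was at 0.0116 to 0.463 TPM and too low to be tested, so here the antisense RNA was the expressed member of the pair. Its shortest transcript, of 444 bases, held 95.6% of its TPM.

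The other 3 calls were smaller in counts. 1700120C14Rik (chr15:99249511-99262044, plus strand), over Mcrs1, was at 5.51, 8.18, 6.41 and 5.77 CPM in the libraries without T-bet and at 2.61, 2.32, 3.35 and 4.72 CPM in those with it (log2 FC -1.03 ± 0.21, SE, edgeR FDR 0.0151). A430057M04Rik (chr14:21847578-21856931, plus strand), over Comtd1, was at 3.53, 2.66, 2.39 and 2.09 CPM without and 5.72, 4.72, 6.70 and 3.99 CPM with T-bet (log2 FC 0.99 ± 0.24, SE, edgeR FDR 0.0271). B630019A10Rik (chr16:23175280-23224446, plus strand), whose exons cross those of the non-coding gene BC106179, was at 6.99, 4.44, 6.22 and 4.38 CPM without and 3.24, 2.80, 3.03 and 2.0 CPM with it (log2 FC -1.01 ± 0.25, SE, edgeR FDR 0.0318). None of the 3 had groups that overlapped, but their gaps were narrow. For 1700120C14Rik, 87.3% of the TPM was on a transcript of the biotype retained_intron. The nearby coding genes of these 3 were not called: the averaged log2 FC was 0.03 for Mcrs1, 0.31 for Comtd1 and -0.30 for Rfc4, the nearest coding gene on the opposite strand to B630019A10Rik.

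Leaving out 1 library at a time kept A730035I17Rik, Gm43352, A630019I02Rik and Gm37065 called in all 8 fits, with the largest FDR at 0.0441, for Gm37065. A430057M04Rik was called only without GFP + Plum 1 or T-bet + GATA3 2, with a log2 FC of 0.77 to 1.13 over the 8 fits and an FDR of up to 0.105. B630019A10Rik was called only without GFP + Plum 2 or T-bet + GATA3 1, with a log2 FC of -1.18 to -0.83 and an FDR of up to 0.116. 1700120C14Rik lost its call without GFP + GATA3 1 or T-bet + Plum 2 (log2 FC -1.20 to -0.87, FDR up to 0.0711). Without T-bet + Plum 2, 4 members and 8.12% of all genes were called. With the study's second threshold added, a log2 FC above 1.5 in size, A730035I17Rik and Gm43352 remained (4.5% of all genes).

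**Figure D2:**
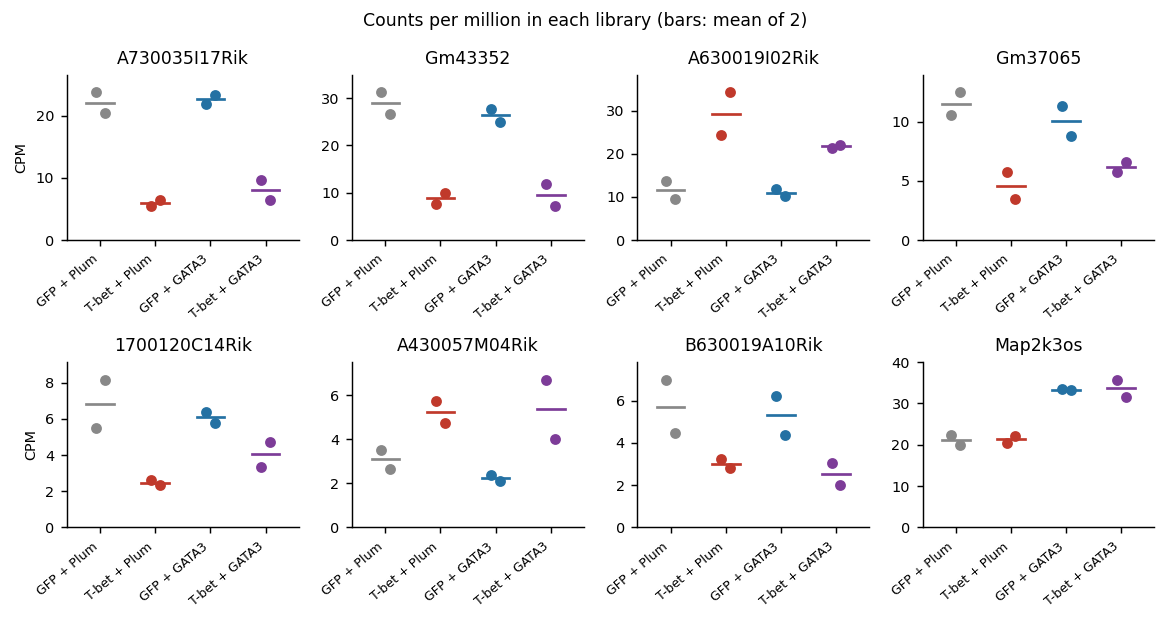
CPM in each of the 8 libraries (points, 2 per line) and the mean of each line (bars) for the 7 members called for T-bet and for Map2k3os, each panel on its own linear axis from 0. A730035I17Rik runs from 5.48 to 9.62 CPM with T-bet and from 20.4 to 23.8 CPM without, while Map2k3os separates by GATA3, at 31.6 to 35.8 CPM with it and 19.9 to 22.3 CPM without.

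Called or not, 4 members had all 4 T-bet libraries above the other 4 in CPM, and 7 had all below, or 4.94% and 8.64% of the members. Over all genes tested, 12.5% had all above and 10.2% all below. Beside the 7 called, the members without overlap were A930024E05Rik and Gm47578 above, and Tug1 and Gm28884 below. Tug1, a widely expressed long non-coding RNA, was at 67.7 to 75.9 CPM without T-bet and 57.2 to 65.4 CPM with it, a log2 FC of -0.22 ± 0.08 (SE, edgeR FDR 0.12). A930024E05Rik, over Kdm2b, had a log2 FC of 0.64 ± 0.20 (SE, edgeR FDR 0.0679).

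The effect of T-bet was then taken in each GATA3 state. In T-bet + Plum against GFP + Plum, 5 members were called (6.17%, against 6.2% of all genes): A730035I17Rik (log2 FC -1.87 ± 0.22), Gm43352 (-1.70 ± 0.25), A630019I02Rik (1.35 ± 0.23), 1700120C14Rik (-1.48 ± 0.31) and Gm37065 (-1.35 ± 0.28), each with its SE and an edgeR FDR of 0.00288 to 0.0306. In T-bet + GATA3 against GFP + GATA3, 3 were called (3.7%, against 5.77% of all genes), with log2 FCs of -1.51 ± 0.22 for A730035I17Rik, -1.48 ± 0.25 for Gm43352 and 0.99 ± 0.23 for A630019I02Rik (SE, edgeR FDR 0.00688 to 0.0472). With the size threshold added, 2 and 1 members remained, against 3.02% and 2.85% of all genes. Leaving out 1 library leaves 1 in a line, and most of these calls were lost in some such fit. Over these fits the log2 FC for T-bet + Plum was -2.01 to -1.76 for A730035I17Rik and -1.90 to -1.54 for Gm43352. It was 1.08 to 1.63 for A630019I02Rik, -1.74 to -1.16 for 1700120C14Rik and -1.72 to -1.01 for Gm37065. For T-bet + GATA3 it was -1.83 to -1.275 for A730035I17Rik, -1.89 to -1.19 for Gm43352 and 0.88 to 1.09 for A630019I02Rik.

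Whether the effect of T-bet differed between the states was tested as an interaction. For A730035I17Rik, Gm43352 and A630019I02Rik the estimates had the same sign in both states, and no member was called for the interaction (0 of 81, and 0% of all genes, by edgeR; 0 by DESeq2, against 0.0654% of all genes). At an unadjusted p under 0.05 there were 4 members, 4.94%, against 2.58% of all genes. The 3 smallest were those of Gm15564 (log2 0.94 ± 0.27, SE), Gm49015 (-0.93 ± 0.34) and Gm17494 (0.55 ± 0.20), each with an edgeR FDR of 1.00. For 1700120C14Rik the log2 FC for T-bet was -1.48 without GATA3, and its interaction estimate was 0.90 ± 0.42 (SE, edgeR FDR 1.00).

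In T-bet + GATA3 against GFP + Plum, the line with both factors against that with neither, 3 members were called (3.7%, against 4.87% of all genes). A730035I17Rik (log2 FC -1.47 ± 0.22) and Gm43352 (-1.62 ± 0.25) fell, and Map2k3os rose (0.67 ± 0.14, SE, edgeR FDR 0.00846, 0.00962 and 0.032). This comparison shares its GFP + Plum libraries with that of T-bet + Plum, and its T-bet + GATA3 libraries with that in the GATA3 lines, so the 3 sets of calls are not independent. With the size threshold added, 1 member remained, against 2.61% of all genes. The call of Map2k3os was lost without any 1 of the 8 libraries, with an FDR of up to 0.189 and a log2 FC of 0.56 to 0.76.

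For GATA3, averaged over both T-bet states, 0 members were called by edgeR, against 0.0608% of all genes (9 genes), and 1, Map2k3os, by DESeq2, which called 0.522% of all genes (80 genes). At an unadjusted p under 0.05 there were 3 members, 3.7%, against 4.96% of all genes. In GFP + GATA3 against GFP + Plum and in T-bet + GATA3 against T-bet + Plum, 0 members were called by edgeR, against 0.0203% and 0.0338% of all genes, and 0 by DESeq2, against 0.293% and 0.235%, with 5 members in each at an unadjusted p under 0.05 (6.17%, against 3.7% and 3.78% of all genes). The median size of the averaged log2 FC was 0.18 over the members and 0.11 over all genes, and its median was -0.088 and -0.003. Of the members, 26 had an averaged estimate above 0 and 55 below. Replicate libraries also differed more over the members than over all genes, most in GFP + Plum, by a median of 0.467 against 0.293 on the log2 scale. The medians were 0.266 against 0.223 in T-bet + Plum, 0.215 against 0.192 in GFP + GATA3 and 0.298 against 0.260 in T-bet + GATA3. The part of this spread in the size of the GATA3 estimates was not tested. Members share the same 8 libraries, and a shift of the members as a set was not tested.

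Map2k3os (ENSMUSG00000042549.10; chr11:60920917-60931867, minus strand) had the smallest p for GATA3 in each of these 3 comparisons. It was at 22.3 and 19.9 CPM in GFP + Plum, 20.5 and 22.0 in T-bet + Plum, 33.4 and 33.2 in GFP + GATA3, and 35.8 and 31.6 CPM in T-bet + GATA3. All 4 libraries with ectopic GATA3 were above all 4 without, as they were for 1 other member, Gm20400 (2.47% of the members for these 2, against 0.825% of all genes), and no member had all 4 below (0.798% of all genes). The averaged log2 FC of Map2k3os was 0.66 ± 0.10 (SE, edgeR FDR 0.109), and it was 0.66 in each T-bet state, so the difference did not pass the threshold. Gm20400 had a log2 FC of 0.41 ± 0.12 (SE, edgeR FDR 0.599) and C78197, the next, 0.90 ± 0.26 (SE, edgeR FDR 0.606).

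Map2k3, which encodes the kinase that activates p38, starts 166 bases from Map2k3os in the opposite direction and was 491, 384, 327 and 452 TPM in the libraries without ectopic GATA3 and 701, 818, 547 and 518 TPM in those with it. These groups also did not overlap, and its averaged log2 FC for GATA3 was 0.65 ± 0.13 (SE, edgeR FDR 0.226). No 31-base window of Map2k3os was in another gene, so the pair shares no read by sequence. Both members of the pair missed the threshold.

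**Figure D3:**
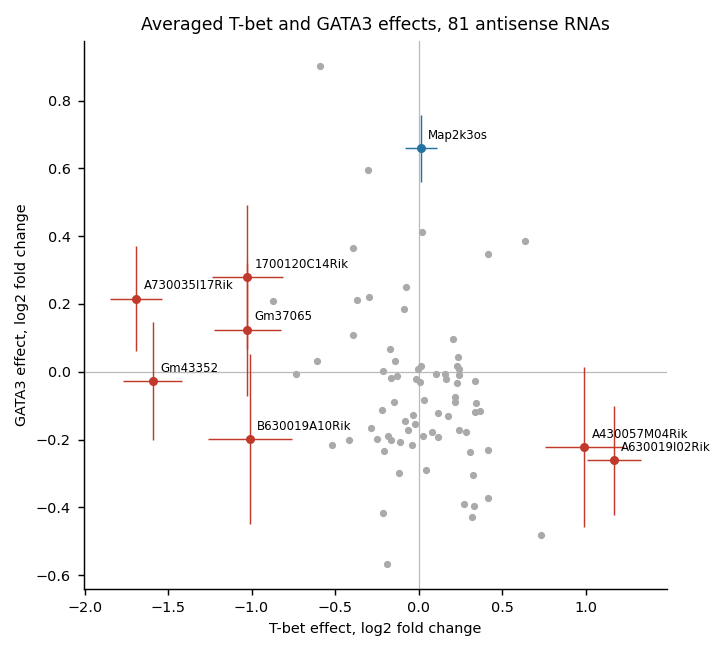
Averaged T-bet effect (x axis) against averaged GATA3 effect (y axis), both as log2 fold changes, for the 81 antisense RNAs; red marks the 7 called for T-bet and blue Map2k3os, with lines of ± 1 SE. The called members spread along the T-bet axis from -1.69 to 1.17, and Map2k3os stands at 0.01 for T-bet and 0.66 for GATA3.

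Each member was next set beside the protein-coding gene it overlaps or lies nearest to on the opposite strand. The sense gene was expressed enough to be tested for 61 members, and 43 of the 81 antisense RNAs had a higher mean TPM than it. Only the antisense RNAs had to hold at least 20 counts in each library, so the rule itself tilts that tally toward them. Of the 61 sense genes, 16 were called for T-bet (26.2%, against 15.2% of all genes). In 10 of these 16 the antisense RNA had an estimate of the same sign, and in 3 it was called too: A730035I17Rik with Prdm8, Gm43352 with Lef1, and A630019I02Rik with Cmya5. Over all 61 pairs the signs were the same in 33.

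The other 13 sense genes changed without a call on their antisense RNA. Znfx1, an RNA helicase gene of antiviral defence, rose by 1.26 ± 0.12 (SE, log2; edgeR FDR 0.000418) while Zfas1, which starts at its 5′ end, stood at 0.31 ± 0.13 (SE, edgeR FDR 0.167). Igf2r, the gene that Airn silences on the paternal chromosome, fell by 0.65 on the log2 scale (SE 0.11, edgeR FDR 0.00602), and Airn stood at -0.15 (edgeR FDR 0.788). Kdm2b, a histone demethylase gene, rose by 0.69 ± 0.13 (SE, edgeR FDR 0.0106), close to the 0.64 of A930024E05Rik, which missed the threshold. Bace1 fell by 3.27 (SE 0.56, edgeR FDR 0.00671) from low levels, 0.369 to 1.82 TPM without T-bet, and Gm16536 stood at -0.17 (edgeR FDR 0.633).

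By shared exon bases, the 11 members with 50% or more on an opposite-strand gene held 2 of the 3 joint calls, and the third, Gm43352, shared 39.4%. Among the members over or divergent from a coding gene, 48 shared some but under 50%, with 10 of their 38 tested sense genes called and 1 joint call. Of 18 that shared none, 11 had a tested sense gene, 3 of these were called and there was no joint call. All 3 joint calls therefore lay in pairs with common exon bases, in which strand decides the assignment of reads, and the part of this in the joint calls was not tested.

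**Figure D4:**
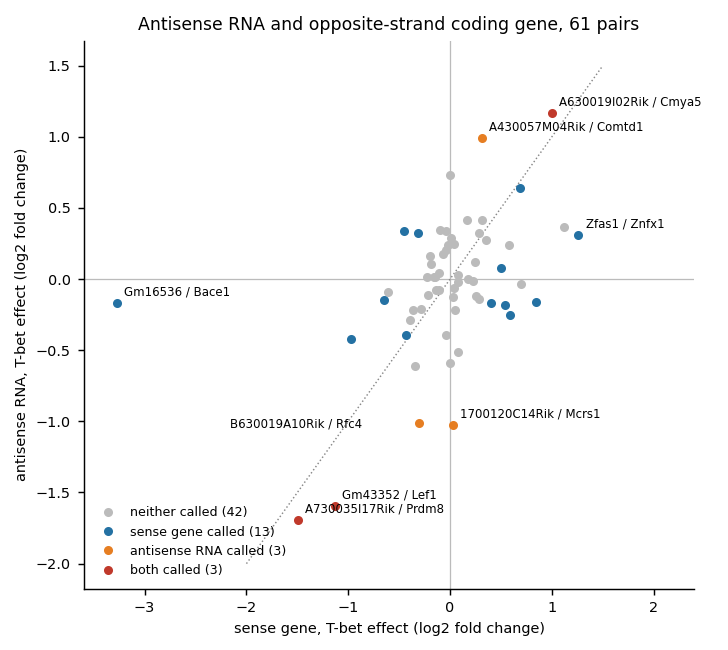
Averaged T-bet effect as log2 fold change of the sense gene (x axis) and of its antisense RNA (y axis) for the 61 members whose sense gene was tested; the dotted line marks equal changes and colours mark which of the pair was called. The 3 pairs with both called lie near the dotted line, 13 with only the sense gene called reach at most 0.64 on the y axis, and 3 with only the antisense RNA called lie between -0.30 and 0.31 on the x axis.

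The partner is named by the symbol itself for 9 members, and here the ratio of antisense to sense TPM was compared in an exact two-sided permutation test over the 8 libraries, on log2 of the ratio after adding 0.01 TPM to each. With 70 assignments of the libraries the smallest possible p was 0.0286, or 0.257 for a single pair after adjustment over 9, so at least 6 pairs at that p would have been needed for any to pass. The ratio differed by orders of magnitude between pairs. Rab26os was 7.32 ± 0.41 above Rab26 on the log2 scale without T-bet and 8.17 ± 0.81 with it (SD, n = 4), on a sense gene with only 2.33 to 11 estimated counts in a library, whereas Map2k3os was below Map2k3, at -4.57 ± 0.10 without and -4.33 ± 0.17 with T-bet (SD, n = 4). Rab10os, Hoxa11os, Brip1os and Zfp335os stood near their partners, the widest gap being the -1.55 of Zfp335os in T-bet + Plum 2, Mypopos was above Mypop by 2.35 to 3.26 and Tmem147os stood at -4.77 to -3.05 against Tmem147.

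No pair passed the adjustment over the 9 pairs, as no single pair could, for T-bet (smallest exact permutation p 0.114, adjusted 0.429) or for GATA3 (smallest exact permutation p 0.0857, adjusted 0.771). The smallest p of both were those of Kcnq1ot1, with Map2k3os at the same value for T-bet. The log2 ratio of Kcnq1ot1 to Kcnq1 was 7.74 and 7.41 in GFP + Plum, 4.39 and 5.31 in T-bet + Plum, 4.73 and 4.90 in GFP + GATA3, and 3.27 and 3.22 in T-bet + GATA3. Kcnq1, a potassium channel gene, had 0 to 4 estimated counts in a library, so this ratio rests on few counts and on the added 0.01 TPM, and Kcnq1ot1 itself was even, at 1.69 to 2.34 TPM. For Map2k3os the ratio differed by 0.24 between libraries with and without T-bet and by 0.01 between those with and without GATA3, the log2 FC for GATA3 being 0.66 for the antisense RNA and 0.65 for Map2k3, neither of them called.

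**Figure D5:**
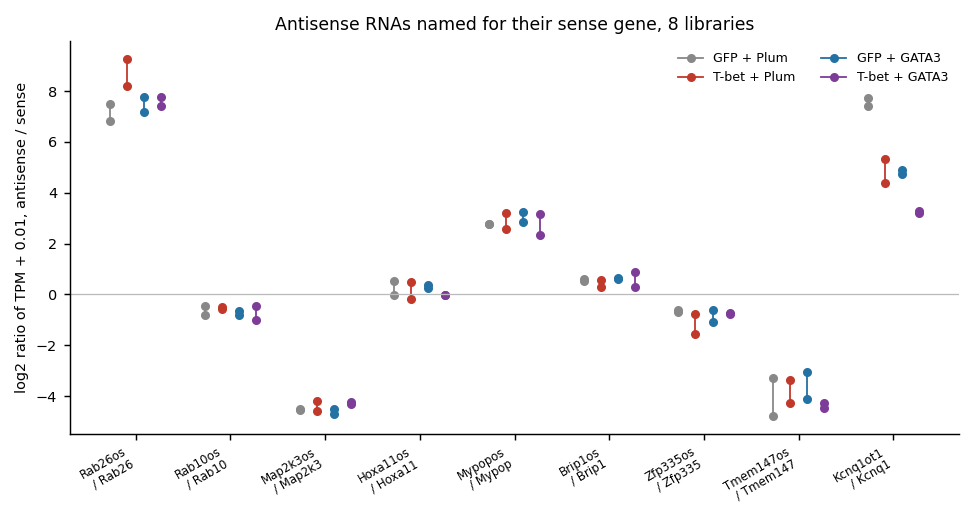
Log2 ratio of antisense to sense TPM, each with 0.01 added, for the 9 antisense RNAs named for their sense gene; points are the 2 libraries of each line, joined by a bar, and colours mark the lines. The ratio runs from -4.77 for Tmem147os to 9.28 for Rab26os, and Kcnq1ot1, whose sense gene had 0 to 4 counts, runs from 3.22 to 7.74, with the T-bet + Plum and GFP + GATA3 libraries overlapping.

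The genes whose CPM over the 8 libraries ran most like the 3 leading members were named by Pearson's r of log2 CPM, over 8 libraries that share lines and depth. For A730035I17Rik they were Atp6v0d2 (r = 0.997), a subunit of the vacuolar proton pump, Serinc5 (r = 0.997) and Cited2 (r = 0.993). For Gm43352 they were Sox5 (r = 0.994), Ccr7 (r = 0.989), the homing receptor of naive T cells, and Apod (r = 0.989). For A630019I02Rik they were Dok2 (r = 0.989), Macf1 (r = 0.988) and Inf2 (r = 0.988). The 3 members were picked by their FDR for T-bet in these same libraries, and each gene named here was itself called for T-bet. A high r therefore restates that contrast and is no separate result. Prdm8 ranked 25 and Lef1 33 among 14790 genes for likeness to their antisense RNAs, and Cmya5 ranked 556.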

How the data were processed

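Poly-adenylated RNA of 4 EL4 lines, 2 libraries each, was sequenced by the authors, whose methods name FastQC, Trim Galore and kallisto with Gencode transcript models on GRCm38. The version of kallisto and its strand setting are not given in the sources used here. The deposited values are estimated counts and TPM (length-scaled transcript abundance) per transcript, with effective lengths. Estimated counts divide ambiguous reads among transcripts, so genes that share sequence can trade reads.

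Estimated counts and TPM were summed per gene, and the sums were rounded for testing. Biotypes came from the deposited transcript names; positions, current symbols (matched by gene ID), exon overlap and shared 31-base windows came from Gencode M21, which gave a position for all 81 members. The members and lists were chosen with earlier results of these data known. edgeR 4.0.16 (R 4.3.3; TMM, filterByExpr, quasi-likelihood test) fitted the 4 lines together over 14791 genes, with Benjamini-Hochberg adjustment over all of them and calls at an FDR of 0.05; all 81 members were tested. The SE was taken as the size of the log2 FC over the root of F. Levels between genes were compared in TPM, libraries in CPM (normalised for depth by TMM). Members were named where called, where highest in TPM, at the count minimum, by symbol-named partner, or, with no call, by the 3 smallest p. The count tests were tested on simulated data. Alternatives were DESeq2 1.42.0, other scalings, filters, offsets and member minima, a replicate block and each library left out. Counts in a library of about 20 leave wide counting error. Some results are not reported here.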

Additional observations from a re-analysis of the deposited data

Results flagged for a closer look

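For 1 of the named members, Gm15564, the 2 libraries of each line separated in opposite directions. Without GATA3 it was lower with T-bet, at 381 and 516 CPM in T-bet + Plum against 790 and 604 CPM in GFP + Plum, and with GATA3 it was higher, at 591 and 492 CPM in T-bet + GATA3 against 423 and 451 CPM in GFP + GATA3. The interaction estimate was 0.94 on the log2 scale (edgeR FDR 1.00), so the difference did not pass the test over all genes. With no filter on low counts the interaction of this member was called. Lars2, with which it shares sequence, was at 22831 and 23231 CPM in GFP + Plum and 19569 and 21717 CPM in T-bet + Plum. With GATA3 it was at 18844 and 19238 CPM in GFP + GATA3 and 23387 and 21375 CPM in T-bet + GATA3. Lars2 thus had the same directions as Gm15564, with log2 FCs for T-bet of -0.16 ± 0.15 without GATA3 and 0.23 ± 0.15 with it (SE). Neither was called (edgeR FDR 0.627 and 0.447), and the interaction estimate was 0.39 ± 0.21 (SE). The part of Lars2 in the pattern of Gm15564 was not tested.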

How the results depend on the processing

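For the averaged T-bet effect, 13 members were called with no filter on low counts (10.3% of all genes in that fit). Of the 44 members with at least 50 counts in every library, 2 were called (15.2% of all genes). A730035I17Rik, with 44.0 estimated counts in T-bet + Plum 1, fell outside that minimum. Of all 81 members, 2 were called with a log2 FC above 1.5 in size (4.5% of all genes). Leaving out 1 library, which leaves 1 in a line, changed which members were called. Every one of the 7 stayed called by DESeq2, by library size alone and with at least 10 counts in every library, and B630019A10Rik was lost with transcript length offsets. For T-bet + Plum against GFP + Plum the count was 9 with no filter (6.35% of all genes) and 3 from the libraries of the contrast alone (4.89%). It was 2 with the size threshold (3.02%) and 2 of the 44 members with at least 50 counts (6.2%). Of the 60 members with at least 50% of their windows unshared, an alternative chosen after seeing the data, 3 were called (6.2%). For T-bet + GATA3 against GFP + GATA3 the count was 5 with no filter (6.26%), 1 with the size threshold (2.85%) and 1 of the 60 unshared members (5.77%). For T-bet + GATA3 against GFP + Plum it was 7 with no filter (5.49%), 0 from the libraries of the contrast alone (2.11%) and 1 with the size threshold (2.61%). For GATA3 it was 1 by DESeq2 (Map2k3os, 0.522% of all genes) and 2 with no filter (Map2k3os and C78197, 1.21%) averaged, and with no filter 1 in GFP + GATA3 against GFP + Plum (0.947%) and 1 in the interaction (0.469%), both Gm15564.

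The labels give the replicate numbers no shared day, and same-numbered libraries of 2 lines had correlations of -0.05 to 0.30 in their deviations, over 0.1 in 4 of 6 pairs of lines, so the numbers were not taken as pairs, and whether they mark shared harvests was not tested. With the replicate block 14 members (20.7% of all genes) were called for the averaged T-bet effect, the 7 among them. Those gained were 1110002L01Rik, 2010007H06Rik, A930024E05Rik, Gm10734, Gm28884, Gm4117 and Zfas1. There were 5 called in each of T-bet + Plum against GFP + Plum (9.74%), T-bet + GATA3 against GFP + GATA3 (9.32%) and T-bet + GATA3 against GFP + Plum (7.5%). The ratio test called 0 pairs under every alternative, which says nothing of stability: a single pair could not pass, and within the block the smallest possible p was 0.0556. Over 263 alternatives to the 18 log2 FCs of called members, 210 kept the call, 53 lost it and 0 changed sign. Depth limits the members near 20 counts most.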
